A study of Caenorhabditis elegans with 12 samples.

Results

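Of 10 genes that make chemical transmitters or load them into synaptic vesicles, 8 had a row in the gene tables of whole worms and are described here, among 15365 genes in all. They were taken by gene name: unc-17 and cha-1 for acetylcholine, unc-25 and unc-47 for GABA, eat-4 for glutamate, cat-1 for the monoamines, and tdc-1 and tbh-1 for tyramine and octopamine. The dopamine enzyme gene cat-2 and the serotonin enzyme gene tph-1 had no row in the tables used here and were not analysed. The main result was a split in direction. The genes tdc-1 and tbh-1 were lower on glucose than in untreated worms, while the GABA enzyme gene unc-25 was higher. Of all genes tested 31.3% were called in that comparison. The call of tbh-1 was lost under 1 alternative only, while those of tdc-1 and unc-25 were lost under several. Between worms given naringin in solvent and worms given solvent alone no member was called, where 9.87% of the genes tested were.

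All worms were wild type Caenorhabditis elegans of the N2 strain, fed OP50 bacteria at one temperature and treated from the L4 larval stage, with 3 libraries in each of 4 groups. Untreated worms made up the Control group. The remaining groups all received 2% glucose, which was given by itself (Glu), together with the solvent dimethyl sulfoxide (DMSO+Glu), or together with 25 μM of naringin, a flavonoid glycoside of citrus fruit, dissolved in that solvent (Nar+Glu). The methods of the study give a final solvent level of 0.1% and an exposure of 5 days, with removal of progeny by letting adults settle. No group with solvent or naringin but without glucose was among the libraries used here, and the text used here does not say whether the libraries of a group came from separate cultures, so p-values measure the spread between libraries, which may be technical.

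A neuron's transmitter is fixed by the synthetic enzyme it makes and by the transporter that pumps the product into vesicles. Choline acetyltransferase (cha-1) and the vesicular acetylcholine transporter (unc-17) serve the cholinergic neurons that excite body wall muscle. Glutamic acid decarboxylase (unc-25) and the vesicular GABA transporter (unc-47) serve the inhibitory motor neurons. The transporter EAT-4 loads glutamate, and CAT-1 loads dopamine, serotonin, tyramine and octopamine. Tyrosine decarboxylase (tdc-1) makes tyramine, and tyramine beta-hydroxylase (tbh-1) turns it into octopamine. These last genes are expressed in very few neurons, but also outside the nervous system, in the sheath cells of the gonad and, for tdc-1, in uv1 cells of the uterus. In RNA from whole worms, fewer cells of a type and less RNA per cell cannot be told apart.

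The levels are given in FPKM, a unit corrected for the length of the transcript and the size of the library, so they can be compared between genes of unlike length. The summed gene FPKM of a library was 308900 to 362748, and the number of fragments behind a value is unknown. Changes are differences of log2(FPKM + 1), each the first group minus the second, from a limma fit to all 12 libraries over the 12151 genes with a mean above 1 FPKM. Calls were made where the p, adjusted by Benjamini-Hochberg over all those genes, was below 0.05. The members tested in this way were 5, namely unc-17, cha-1, unc-25, tdc-1 and tbh-1. The other 3, unc-47, eat-4 and cat-1, had means under 1 FPKM, and their changes come from the same fit with no filter, over all 15365 genes. Every gene in the tables reached a mean of at least 0.50 FPKM in some group. The Control means of unc-47 and eat-4, and each Control library of cat-1 but 1, lay under that level, so these genes had rows through their higher groups, and a rise from Control is partly built into their presence. The Control mean of cha-1 was likewise under the filter of 1 FPKM that its mean of 1.08 FPKM over 12 libraries passed.

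The levels of the members spanned a wide range. The octopamine enzyme gene tbh-1 averaged 58.4 FPKM over 12 libraries, above 93.2% of the 15365 genes, and tdc-1 averaged 42.8 FPKM, above 88.9% of them. The GABA enzyme gene unc-25 followed with a mean of 5.12 FPKM, near the middle of all genes. The other members averaged 1.58 FPKM (unc-17), 1.08 FPKM (cha-1), 0.858 FPKM (eat-4), 0.819 FPKM (unc-47) and 0.612 FPKM (cat-1). Thus the enzymes of tyramine and octopamine stood far above the markers of all cholinergic, GABAergic and glutamatergic neurons in FPKM. For the neurons whose enzyme genes had no row, the reuptake transporters gave a low signal. The dopamine transporter gene dat-1 had 0.336 to 1.32 FPKM and the serotonin transporter gene mod-5 had 0.582 to 1.1 FPKM over the 12 libraries, and both were singled out after their values were seen.

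**Figure D1:**
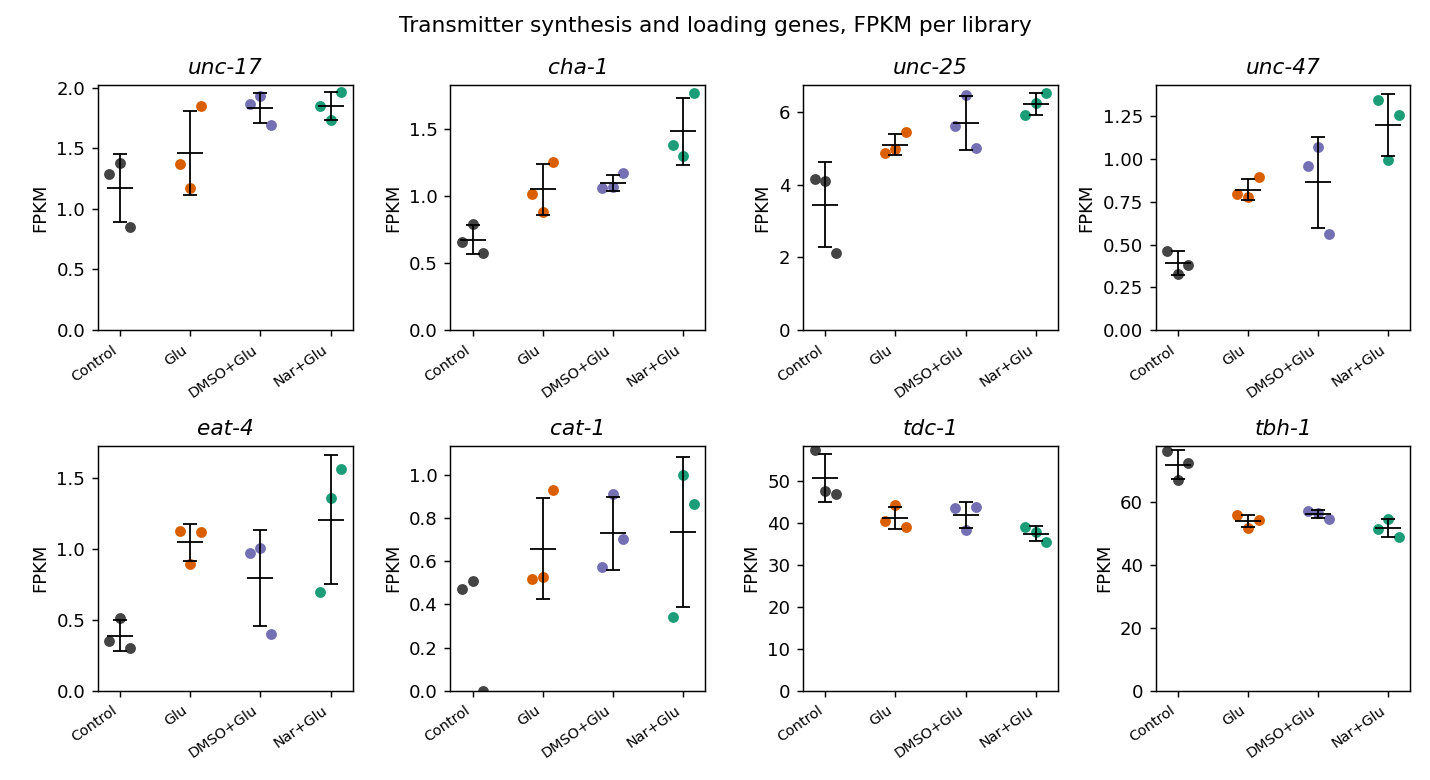
FPKM of each of the 8 genes in every library (points) with the group mean and SD (bars, n = 3) in the 4 groups. Each axis starts at 0, and no mean is drawn for Control in cat-1, where 1 library is listed at 0. The tdc-1 and tbh-1 points are highest in Control, and the other panels are lowest there.

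Control replicate 3 stood apart in several of these genes and is named where a result rests on it. Among the 12 libraries it had the lowest unc-17, cha-1, unc-25, eat-4 and cat-1 values and the lowest mean of the 22 pan-neuronal genes listed for comparison, at -0.41 on the log2 scale relative to the mean of all libraries. It did not have the lowest value of unc-47, and its tbh-1 value of 72.4 FPKM lay between those of the other Control libraries.

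The acetylcholine genes lie in one locus on the minus strand of chromosome IV of the WBcel235 assembly, unc-17 at 3618259 to 3624699 and cha-1 at 3613931 to 3624697. They share a first exon, and the other exons of unc-17 lie inside the first intron of cha-1. The shared stretch of 66 bases, at 3624632 to 3624697, is 3.43% of the exonic bases of unc-17 and 3.18% of those of cha-1, so reads from that exon can be assigned to either gene, while nearly all exonic bases are particular to one. Each gene had 1 transcript in the files.

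The transporter gene unc-17 had 1.29, 1.38 and 0.849 FPKM in the Control libraries and 1.37, 1.17 and 1.85 FPKM in the Glu libraries. In DMSO+Glu it had 1.87, 1.93 and 1.70 FPKM, and in Nar+Glu 1.85, 1.73 and 1.97 FPKM. Control and Glu overlapped, and so did DMSO+Glu and Nar+Glu. Glu minus Control was 0.18 ± 0.14 (SE) on the log2 scale (adjusted p = 0.34), and it turned to -0.17 when each library was shifted by its mean over the pan-neuronal genes. The 1 added to FPKM shrinks the log2 change of members near 1 FPKM more than that of higher genes, so this shift can overcorrect them. The change of Nar+Glu minus DMSO+Glu was 0.01 (adjusted p = 0.981). Only Nar+Glu minus Control passed, at 0.40 ± 0.14 (adjusted p = 0.0305), a ratio of mean FPKM of 1.58. That call was lost without Control replicate 3 (0.29, adjusted p = 0.122), without Nar+Glu replicate 1 (adjusted p = 0.0657), without Nar+Glu replicate 3 (adjusted p = 0.0856), with quantile normalization (adjusted p = 0.247), with only the 6 libraries compared (adjusted p = 0.0561) and with a library covariate (0.27, adjusted p = 0.259), and the change was -0.16 with the pan-neuronal shift.

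The enzyme gene cha-1 was lower than unc-17 in every library. It had 0.660, 0.792 and 0.575 FPKM in Control, and 1.01, 0.884 and 1.26 FPKM in Glu. In DMSO+Glu it had 1.06, 1.07 and 1.17 FPKM, and in Nar+Glu 1.39, 1.302 and 1.77 FPKM. All Glu libraries lay above all Control libraries, and all Nar+Glu libraries above all DMSO+Glu libraries. Neither step passed the test, with Glu minus Control at 0.29 ± 0.14 (adjusted p = 0.119) and Nar+Glu minus DMSO+Glu at 0.24 ± 0.14 (adjusted p = 0.287). Both turned to -0.06 with the pan-neuronal shift. Over the whole span, Nar+Glu minus Control was 0.57 ± 0.14 (adjusted p = 0.00414), a ratio of 2.20. It missed the threshold with quantile normalization (adjusted p = 0.0505) and with a library covariate (adjusted p = 0.103). With the pan-neuronal shift it was 0.0048 (adjusted p = 0.979). The 1 added to FPKM shrinks a ratio of 2.20 at this level, so that value does not measure cha-1 relative to neuronal genes.

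The ratio of cha-1 to unc-17 within a library varied from 0.513 to 0.901. Its mean was 0.588 ± 0.083 in Control and 0.726 ± 0.039 in Glu, then 0.604 ± 0.076 in DMSO+Glu, and Nar+Glu reached 0.801 ± 0.087 (± SD, n = 3). The ratio did not overlap between Glu and Control or between Nar+Glu and DMSO+Glu, being higher in the first group each time. Glu and Control nearly met, with a highest Control ratio of 0.677 and a lowest Glu ratio of 0.681. In both comparisons the exact two-sided permutation test gave p = 0.1, the smallest that 3 libraries against 3 allow, before any adjustment over the 12 ratio comparisons made. A ratio within a library does not depend on the scaling of that library. The ratio rests on genes near 1 FPKM. The gene cha-1 passed the filter through its groups on glucose, so a rise of the ratio from Control is partly built in.

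The GABA enzyme gene unc-25 (chromosome III, 12942651 to 12949883, plus strand) was the only tested member called higher on glucose. It had 4.14, 4.10 and 2.11 FPKM in Control, and 4.88, 4.98 and 5.43 FPKM in Glu. It had 5.61, 6.47 and 5.00 FPKM in DMSO+Glu, and 5.91, 6.24 and 6.51 FPKM in Nar+Glu. Every library on glucose exceeded every Control library, and Control replicate 3 lay far below the other Control libraries. Glu minus Control was 0.49 ± 0.16 (adjusted p = 0.0353), a ratio of 1.48. The call was lost without Control replicate 3, where the change fell to 0.25 (adjusted p = 0.118), and without Glu replicate 1, 2 or 3 (adjusted p = 0.0564, 0.0696 and 0.106). It was also lost with quantile normalization (adjusted p = 0.0998), with only the 6 libraries compared (adjusted p = 0.0661) and with a library covariate (0.29, adjusted p = 0.444), and with the pan-neuronal shift the change was 0.14 (adjusted p = 0.382). With naringin, Nar+Glu minus DMSO+Glu was 0.11 ± 0.16 (adjusted p = 0.695), with overlapping libraries, and it was -0.18 with the pan-neuronal shift. Nar+Glu minus Control was 0.73 ± 0.16 (adjusted p = 0.00234), a ratio of 1.80, which held with every single library left out. It was lost with a library covariate (0.40, adjusted p = 0.301) and was 0.17 (adjusted p = 0.256) with that shift.

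The vesicular GABA transporter gene unc-47 (chromosome III, 10183762 to 10186260, minus strand) was listed at lower levels than unc-25 throughout. It had 0.464, 0.326 and 0.380 FPKM in Control, and 0.796, 0.777 and 0.894 FPKM in Glu. It had 0.962, 1.07 and 0.564 FPKM in DMSO+Glu, and 1.34, 0.996 and 1.26 FPKM in Nar+Glu. Control lay below every other library, and DMSO+Glu spread widely enough to overlap both Glu and Nar+Glu. The gene unc-47 had a row through its higher groups, so a rise from Control is partly built in. A call against Control therefore cannot decide whether it rose. In the fit with no filter, Glu minus Control was 0.39 ± 0.14 (adjusted p = 0.061), a ratio of 2.11 in mean FPKM, and Nar+Glu minus Control was 0.66 (adjusted p = 0.00261), a ratio of 3.08, where 46.6% of the 15365 genes were called. The latter was lost with a library covariate (adjusted p = 0.133) and was 0.10 (adjusted p = 0.541) with the pan-neuronal shift. The 1 added to FPKM shrinks a ratio of 3.08 at this level, so the shifted value does not measure unc-47 relative to neuronal genes. The naringin step, Nar+Glu minus DMSO+Glu, was at 0.25 (adjusted p = 0.311), and -0.05 with that shift. The gene value of 1.07 FPKM in DMSO+Glu replicate 2 stood beside 0.302 FPKM for its only listed transcript, so the 2 tables differ there. The ratio of unc-47 to unc-25 was 0.0795 to 0.227 and overlapped between the groups in all 4 comparisons made.

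The glutamate transporter gene eat-4 (chromosome III, 9136887 to 9141827, plus strand) had 0.354, 0.510 and 0.303 FPKM in Control, and 1.12, 0.893 and 1.12 FPKM in Glu. It had 0.967, 1.01 and 0.402 FPKM in DMSO+Glu, and 0.696, 1.36 and 1.56 FPKM in Nar+Glu. Control and Glu did not overlap, while DMSO+Glu replicate 3 fell back among the Control values. The gene eat-4 had a row through its higher groups, so a rise from Control is partly built in. Its calls against Control therefore cannot decide whether it rose. With no filter, Glu minus Control was 0.56 (adjusted p = 0.0402), a ratio of 2.69, where 24.3% of all 15365 genes were called. That call was lost without Control replicate 1 or 3 (adjusted p = 0.0984 and 0.104), without any single Glu library (adjusted p = 0.0893, 0.0633 and 0.111 for replicates 1 to 3), with quantile normalization (adjusted p = 0.126), with a library covariate (adjusted p = 0.156) and with the replicate number as a block (adjusted p = 0.0533), and with the pan-neuronal shift the change was 0.21 (adjusted p = 0.368). Nar+Glu minus DMSO+Glu was 0.30 (adjusted p = 0.339), and -0.001 with the pan-neuronal shift. The shift can overcorrect eat-4, as it can unc-47. Nar+Glu minus Control was 0.65 (adjusted p = 0.0113), which was lost without Nar+Glu replicate 3 (0.53, adjusted p = 0.0533) and with quantile normalization (adjusted p = 0.0533) and a library covariate (adjusted p = 0.299), and was 0.09 with the shift. The gene ZK512.7, at 34.1 FPKM, lies within the span of eat-4 on the opposite strand, and the sources used here do not say whether the counting used strand, so the low values of eat-4 are uncertain.

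The vesicular monoamine transporter gene cat-1 (chromosome X, 5705690 to 5710737, minus strand) was the lowest member. It had 0.472 and 0.508 FPKM in 2 Control libraries and was listed at 0 in Control replicate 3. It had 0.517, 0.527 and 0.929 FPKM in Glu. It had 0.575, 0.910 and 0.704 FPKM in DMSO+Glu, and 0.342, 0.998 and 0.864 FPKM in Nar+Glu. The Nar+Glu libraries covered the whole range of the other groups on glucose and went beyond it at both ends. With no filter, Glu minus Control was 0.34 (adjusted p = 0.225), and it was -0.01 with the pan-neuronal shift. Nar+Glu minus DMSO+Glu was -0.01 (adjusted p = 0.979), and its sign changed with the library left out. Nar+Glu minus Control was 0.39 (adjusted p = 0.124), with overlap, and -0.17 with the pan-neuronal shift. The shift can overcorrect cat-1 as well, and a rise from Control is partly built into its presence.

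The tyramine and octopamine enzyme genes took the opposite direction. The tyrosine decarboxylase gene tdc-1 (chromosome II, 8270597 to 8273615, plus strand) had 57.3, 47.7 and 46.9 FPKM in Control, and 40.4, 44.2 and 39.1 FPKM in Glu. It had 43.4, 38.4 and 43.7 FPKM in DMSO+Glu, and 38.9, 37.9 and 35.4 FPKM in Nar+Glu. Every library on glucose was below every Control library, with Control replicate 1 the highest of all. Glu minus Control was -0.29 ± 0.08 (adjusted p = 0.0204), a ratio of 0.814. This call was lost without Control replicate 1 (-0.20, adjusted p = 0.0796), without Glu replicate 3 (adjusted p = 0.0805), with median-ratio scaling (-0.21, adjusted p = 0.0538), with quantile normalization (-0.14, adjusted p = 0.191) and with a library covariate (-0.35, adjusted p = 0.172). Nar+Glu minus DMSO+Glu was -0.16 ± 0.08 (adjusted p = 0.241), and the groups overlapped. Nar+Glu minus Control was -0.42 ± 0.08 (adjusted p = 0.00113), a ratio of 0.739, and kept its call under every alternative tried.

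The tyramine beta-hydroxylase gene tbh-1 (chromosome X, 15500256 to 15504895, minus strand) had 76.3, 67.1 and 72.4 FPKM in Control, and 55.9, 51.9 and 54.2 FPKM in Glu. It had 57.1, 56.4 and 54.7 FPKM in DMSO+Glu, and 51.4, 54.6 and 49.04 FPKM in Nar+Glu. The Control libraries formed a group of their own, and the highest Nar+Glu library lay just under the lowest DMSO+Glu library. Glu minus Control was -0.41 ± 0.06 (adjusted p = 0.000525), a ratio of 0.750, which kept its call with every single library left out and under every scaling tried. It lost it only in the fit without moderation that has a library covariate (-0.45, adjusted p = 0.0827). Nar+Glu minus DMSO+Glu was -0.12 ± 0.06 (adjusted p = 0.241), although the groups did not overlap. Nar+Glu minus Control was -0.47 ± 0.06 (adjusted p = 8.36e-05), a ratio of 0.718, and was likewise lost only in that fit (-0.53, adjusted p = 0.0681).

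The group means of the pair took the same order, lowest in Nar+Glu and highest in Control. Whether their proportion was kept cannot be decided from 3 libraries in each group. The ratio of tbh-1 to tdc-1 lay between 1.17 and 1.54 in the 12 libraries, with a mean of 1.43 in Control and means of 1.31, 1.35 and 1.38 in Glu, DMSO+Glu and Nar+Glu, and it overlapped between the groups in all 4 comparisons made. After each gene was centred over the 12 libraries, tdc-1 and tbh-1 differed by a root mean square of 0.099 on the log2 scale. For unc-17 and cha-1 this difference was 0.12, and for unc-25 and tbh-1, which moved in opposite directions, it was 0.498. The 1 added to FPKM shrinks the differences of unc-17 and cha-1, which lie near 1 FPKM, so 0.12 is not comparable with 0.099. Genes on the opposite strand overlap the ends of tdc-1 and tbh-1, gei-14 over 73 bases of tdc-1 and suox-1 over 26 bases of tbh-1. These had 25.9 and 4.97 FPKM. The gene H13N06.7, which has no row in the tables used here, covers 1772 bases of the span of tbh-1 on the opposite strand.

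**Figure D2:**
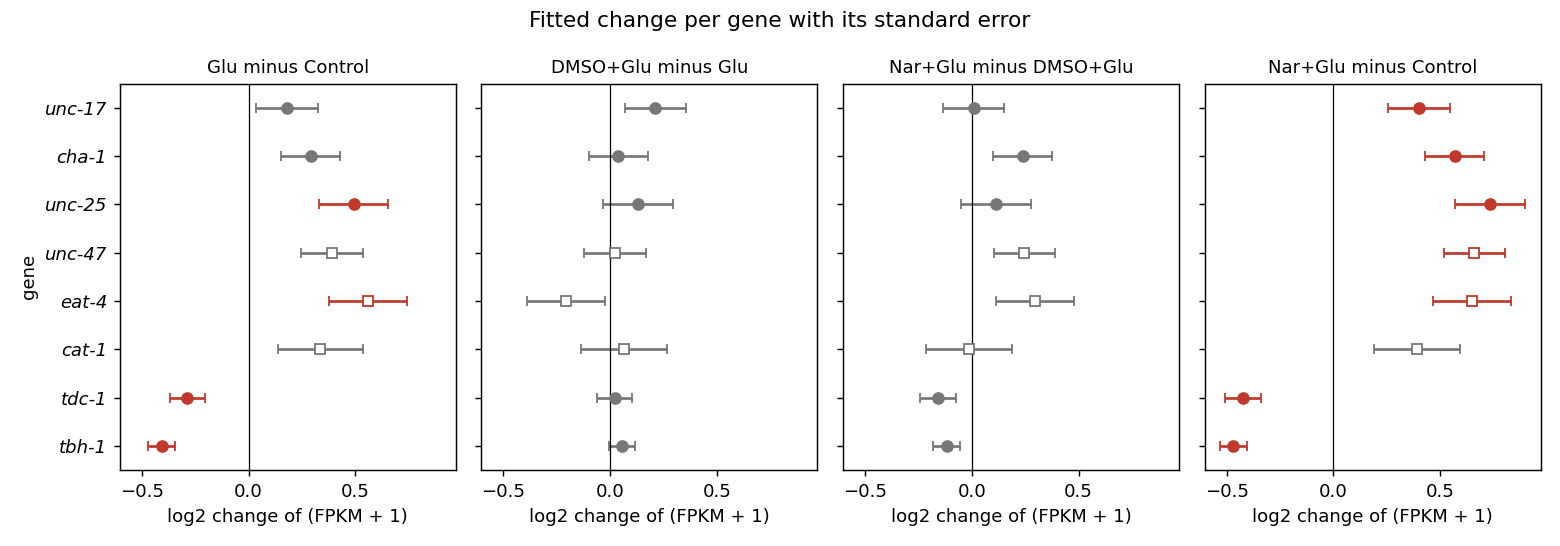
Fitted change of log2(FPKM + 1) with its SE for each gene in 4 comparisons, red where the adjusted p is below 0.05. Filled circles are genes in the fit with the filter and open squares are unc-47, eat-4 and cat-1 in the fit with no filter. In Glu minus Control tbh-1 is at -0.41 and unc-25 at 0.49, and no symbol is red in the comparisons of DMSO+Glu with Glu or of Nar+Glu with DMSO+Glu.

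Counted together in the comparison of Glu with Control, 3 of the 5 tested members were called, 1 higher and 2 lower. Of all 12151 genes 31.3% were called, 12.6% higher and 18.7% lower. The groups did not overlap for 4 of the 5 members (all but unc-17) against 45.4% of all genes. The gene cha-1, 1 of these 4, passed the filter through its groups on glucose, so its rise from Control is partly built in. The median change of the 5 was 0.18 beside -0.06 over all genes, a middle value that belongs to unc-17, since the members lay on both sides of it. These counts describe a short list chosen with results known and are not read as particular to it.

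What the solvent did on glucose is given by DMSO+Glu against Glu. Here limma called 0 of the 5 tested members, and 0 of them reached an unadjusted p below 0.05, where 1.25% of all genes were called. The changes were 0.21 (unc-17), 0.04 (cha-1), 0.13 (unc-25), 0.02 (tdc-1) and 0.05 (tbh-1), and the libraries of the 2 groups overlapped for each, where 15.2% of all genes did not. Those of unc-47, eat-4 and cat-1 were 0.02, -0.21 and 0.07 with no filter, again with overlap.

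What naringin added to the solvent is given by Nar+Glu against DMSO+Glu. Here limma called 0 of the 5 tested members, and 0 of them reached an unadjusted p below 0.05, where 9.87% of all genes were called. The groups did not overlap for cha-1, which was higher, and tbh-1, which was lower, where 34.6% of all genes did not overlap. The SE of these changes was 0.06 to 0.16 on the log2 scale, so small changes of the low genes could not have been seen. With the pan-neuronal shift, tdc-1 was at -0.45 (adjusted p = 0.0014) and tbh-1 at -0.41 (adjusted p = 0.000821), both past the threshold. That shift called 6807 of the 12151 genes and moved the median of all genes to -0.31, so these calls are not read as particular to the members.

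The comparisons with Control that cross the solvent or the naringin step showed the same split. All 5 tested members were called between Nar+Glu and Control, 3 higher and 2 lower, where 54.8% of all genes were called, 21.6% higher and 33.2% lower. The gene cha-1, 1 of the 3, passed the filter through its groups on glucose, so its rise from Control is partly built in. In DMSO+Glu minus Control, where 20.9% of all genes were called, unc-25 was at 0.62 (adjusted p = 0.0204), tdc-1 at -0.27 (adjusted p = 0.0387) and tbh-1 at -0.35 (adjusted p = 0.00266), and unc-17 (0.39, adjusted p = 0.0658) and cha-1 (0.33, adjusted p = 0.10) missed the threshold. Without DMSO+Glu replicate 2, tbh-1 alone was called, and the call of tdc-1 was also lost without Control replicate 1, DMSO+Glu replicate 1 or DMSO+Glu replicate 3 (adjusted p = 0.134, 0.0587 and 0.0562). That call was lost as well with median-ratio scaling (adjusted p = 0.0891), quantile normalization (0.308), only the 6 libraries compared (0.0714), no variance trend (0.0694) and a library covariate (0.24). The call of unc-25 there was lost with only the 6 libraries compared (adjusted p = 0.0527) and with a library covariate (0.228), and that of tbh-1 with the covariate (0.116). With no filter, unc-47 was at 0.41 (adjusted p = 0.0645), eat-4 at 0.35 (adjusted p = 0.197) and cat-1 at 0.40 (adjusted p = 0.177). These comparisons share the Control libraries with the first and do not stand apart from it.

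Neuronal genes as a whole also differed between these groups, and their part in the changes of the members was not tested. The 22 genes listed as pan-neuronal include genes of vesicle release, axonal transport and peptide processing. Whether each acts in all neurons was not tested. Among the 22 genes, 12 were called higher and 1 lower (maco-1) in Glu minus Control, with a median of 0.42. Of all genes tested 12.6% were called higher and 18.7% lower there. With naringin, in Nar+Glu minus DMSO+Glu, 8 of the 22 were called higher and 0 lower, with a median of 0.33. Of all 12151 genes 592 were called higher there and 607 lower. The summed FPKM of the 22 was 261 to 297 in Control and 310 to 338 in Glu. It was 295 to 331 in DMSO+Glu and 356 to 365 in Nar+Glu. The lower level in Control than on glucose was the direction of unc-25 and the opposite of that of tdc-1 and tbh-1.

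Markers of other tissues were measured beside tdc-1 and tbh-1, and their part was likewise not tested. Of 10 germline and oocyte genes, 8 were called lower in Glu minus Control and 0 higher, with a median of -0.23. Of all genes tested 18.7% were called lower there and 12.6% higher. Their summed FPKM was 1847 to 2024 in Control and 1620 to 1776 in Glu, against 1629 to 1762 in DMSO+Glu and 1468 to 1564 in Nar+Glu. For the somatic gonad and uterus, 5 of 6 listed genes had rows and none of the 5 was at 0. In Glu minus Control 1 of the 5 was called lower, plst-1 at -0.30 (adjusted p = 0.0106), and 0 higher. The median of the 5 there was 0.16, with 3 changes above 0 and 2 below. In Nar+Glu minus Control 3 were called higher and 1 lower, with a median of 0.47, where 21.6% of all genes were called higher and 33.2% lower. The gene lim-7, a transcription factor gene expressed in gonadal sheath cells, was called higher in Nar+Glu minus DMSO+Glu, at 0.45 (adjusted p = 0.0228). The summed FPKM of this list overlapped between Control, at 65.9 to 80.6, and Glu, at 56.5 to 66.2. The gene lim-7 had 2.48 to 3.38 FPKM in Control and 3.19 to 3.31 FPKM in Glu. Among other tissues, Glu minus Control called 6 of 8 body wall muscle and 5 of 5 pharyngeal muscle markers higher, 2 of 7 hypodermal markers higher and 1 lower, 2 of 8 intestinal markers higher and 3 lower, and 1 of 4 embryo markers in each direction. These short lists stand beside the same shares of all genes, 12.6% higher and 18.7% lower in Glu minus Control. The 9 sperm markers were all called higher there. In DMSO+Glu minus Glu all 9 changes were below 0, with a median of -0.73, and 2 were called lower, where 1.25% of all genes were called. In Nar+Glu minus DMSO+Glu 6 of the markers were called lower, where 9.87% of all genes were called. Their summed FPKM averaged 38.6 for untreated worms and 71.8 with glucose by itself. With solvent added the average was 40.5, and with naringin 16.4. The sum was thus lower already with solvent and no naringin.

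**Figure D3:**
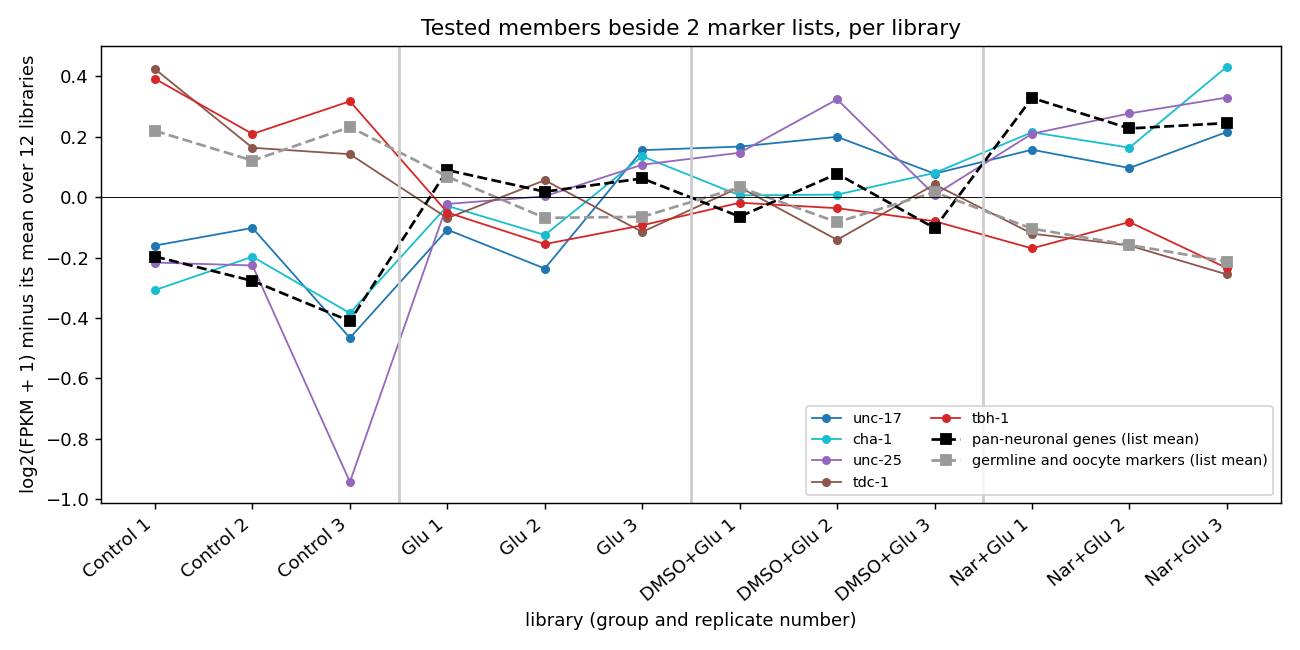
log2(FPKM + 1) of the 5 tested genes in each library, centred on the mean of the 12 libraries, beside the mean of the 22 pan-neuronal genes (black squares) and of the 10 germline and oocyte genes (grey squares). The lines of tdc-1 and tbh-1 start above 0 in Control and end below it in Nar+Glu, and unc-17, cha-1, unc-25 and the pan-neuronal mean run the other way, with unc-25 lowest in Control replicate 3.

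Genes that act around the members were counted from lists. Of 10 tested genes that supply transmitters or their cofactors, 2 were called higher in Glu minus Control and 0 lower, where 12.6% of all genes were called higher and 18.7% lower. These were vglu-2 at 0.53 ± 0.11 (adjusted p = 0.00471) and vglu-3 at 0.46 (adjusted p = 0.0189), relatives of eat-4 in the vesicular glutamate transporter family. None of the 10 was called in Nar+Glu minus DMSO+Glu.

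Of 18 tested genes for reuptake and breakdown, 5 were called higher and 0 lower in Glu minus Control, beside the same shares of all genes. They included snf-11, the plasma membrane GABA transporter, at 0.51 (adjusted p = 0.0151), glt-5, a glutamate transporter, at 0.55 (adjusted p = 0.0186), and ace-1, an acetylcholinesterase, at 0.39 (adjusted p = 0.0221). The acetylcholinesterase gene ace-3 was called higher in Nar+Glu minus DMSO+Glu, at 0.65 ± 0.12 (adjusted p = 0.00421), with means of 4.53 against 2.53 FPKM. The GABA transaminase gene gta-1 was called lower there, at -0.30 ± 0.07 (adjusted p = 0.0122), with means of 43.5 against 53.6 FPKM.

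Receptor genes were counted in the same way. In Glu minus Control, where 12.6% of all genes were called higher, 1 of 9 acetylcholine receptor genes was called higher (gar-3, muscarinic, at 0.52), 1 of 3 GABA receptor genes (gbb-2, a metabotropic subunit, at 0.42), 2 of 9 glutamate receptor genes (the glutamate-gated chloride channel genes glc-1 at 0.64 and glc-2 at 0.37) and 0 of 6 monoamine receptor genes. None was called lower. In Nar+Glu minus DMSO+Glu, where 9.87% of all genes were called, the calls were gar-2, muscarinic, at 0.52 (adjusted p = 0.0325) and unc-63, a nicotinic subunit of body wall muscle, at 0.49 (adjusted p = 0.0357). Glutamate, GABA and monoamine receptor genes had 0 calls there.

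Of 10 tested transcription factors that set transmitter identity, 0 were called in Glu minus Control, where 31.3% of all genes were called. In Nar+Glu minus DMSO+Glu, where 592 of the 12151 genes were called higher and 607 lower, 3 of these factors were called higher and 0 lower. They were ast-1, which drives the genes of dopaminergic neurons, at 0.77 ± 0.15 (adjusted p = 0.00705), unc-42 at 0.58 (adjusted p = 0.0336) and lin-11 at 0.45 (adjusted p = 0.0437). The median change of the 10 in that comparison was 0.43, beside -0.01 over all genes, and all 10 were above 0. The pan-neuronal genes had a median of 0.33 there, with 21 of 22 above 0. The tested members had a median of 0.01, the value of unc-17, with cha-1 and unc-25 above it and tdc-1 and tbh-1 below.

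The transcript table split some members in a way that changed from library to library. For tbh-1 the isoforms H13N06.6a and H13N06.6b traded places. H13N06.6a had 63.8, 57.2 and 62.3 FPKM in Control, and 52.2, 0.155 and 0.006 FPKM in Glu. It had 53.2, 0.009 and 0.013 FPKM in DMSO+Glu, and 44.2, 0.019 and 43.3 FPKM in Nar+Glu. In the 5 libraries where this isoform held under 1% of the summed transcript FPKM, H13N06.6b held over 90%. Libraries of one group thus stood at both extremes while the gene value hardly moved, so the transcript values of tbh-1 are an uncertain assignment and only the gene value was read. The isoform K01C8.3b of tdc-1 ranged likewise from 0.163% to 49.6% of that gene's transcripts.

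For unc-25 the isoform Y37D8A.23a.2 was listed at 0 in Control replicate 3 and at 0.525 to 2.498 FPKM in the other Control libraries, and at 3.88 to 5.07 FPKM in Glu. It then had 0.337 to 1.76 FPKM in DMSO+Glu and 0.447 to 5.86 FPKM in Nar+Glu, and no comparison of it passed. Of the member transcripts, limma on 17588 transcripts called 0 in Glu minus Control, where 9.39% of all transcripts were called, and 0 in Nar+Glu minus DMSO+Glu, where 2.19% were. In Nar+Glu minus Control, where 25% were called, ZC416.8b of cha-1 was called at 0.57 (adjusted p = 0.013) and K01C8.3a.2 of tdc-1 at -0.53 (adjusted p = 0.0483).

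**Figure D4:**
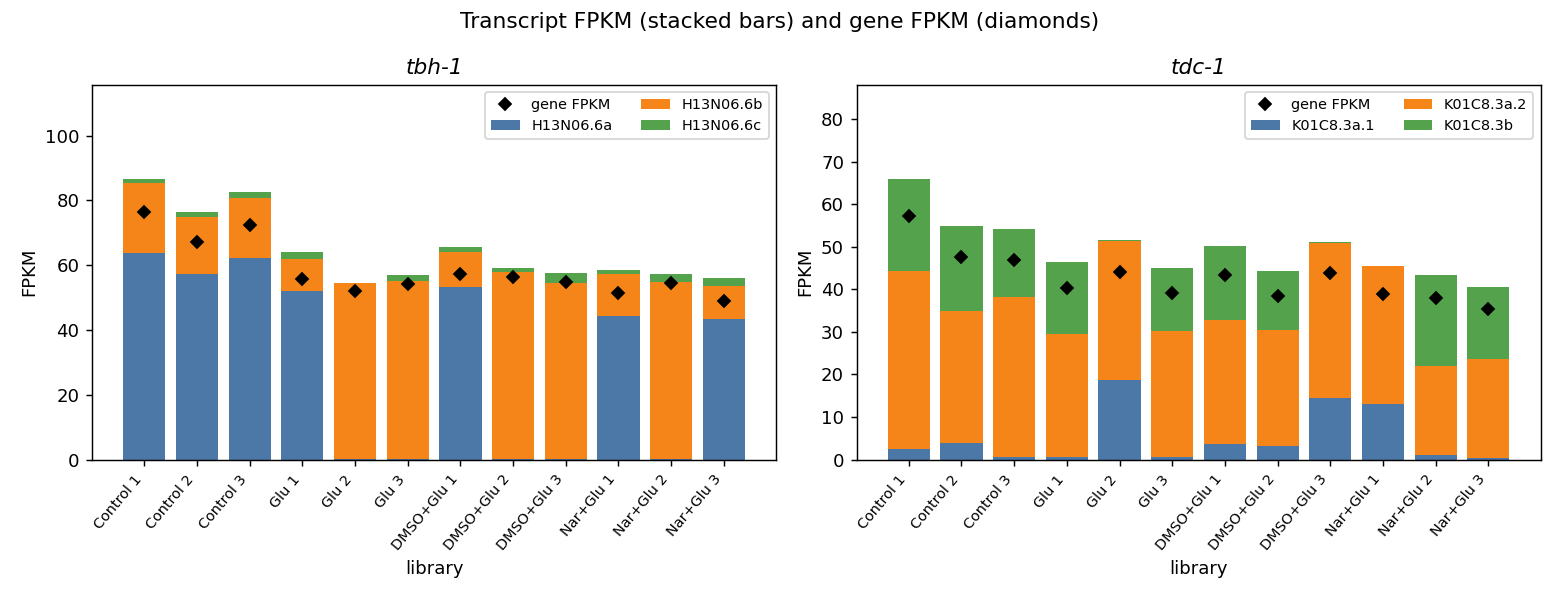
FPKM of each transcript (stacked bars) and of the gene (diamonds) for tbh-1 and tdc-1 in the 12 libraries. The H13N06.6a bar of tbh-1 is 43.3 to 63.8 FPKM in 7 libraries and near 0 in the other 5, while the gene value stays between 49.04 and 76.3 FPKM.

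The genes most like the members were found over the 12 libraries, as the tested genes outside the list with the smallest root mean square difference from the mean of the 5 centred members on the log2 scale. They were mup-4 (0.036), vha-5 (0.0427), itr-1 (0.0486), let-19 (0.0509) and lrk-1 (0.0525). That mean joins genes that moved in opposite directions and is itself nearly flat, from -0.27 in Control replicate 3 to 0.10 in Nar+Glu replicate 3, so the likeness is to a pattern that no single member has.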

How the data were processed

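Gene and transcript values are deposited as FPKM, 1 table per library, which the authors computed from stranded, poly(A)-enriched libraries with HISAT2 2.1.0, StringTie 1.3.3 and Ballgown on WBcel235. The deposited circular RNA counts, 856 to 1550 per library, are unscaled and were made by the authors from STAR 2.5.2b alignments. Whether counting used strand is not given in the sources used here.

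Groups were taken from the sample titles. log2(FPKM + 1) was fitted with limma 3.58.1 (moderated, with a mean-variance trend) in R 4.3.3 for 12151 genes and 17588 transcripts with a mean above 1 FPKM, and tested on simulated data. Ratios were compared with an exact permutation test in scipy 1.17.1. Coordinates come from the WBcel235 annotation. The members, lists and naming rule were chosen with earlier results of these data known. Besides all members, the rule names at most 4 called genes of a list and comparison, by smallest p, and the 5 most alike genes. Alternatives were a pseudocount of 0.1, no filter or a mean above 5 FPKM, median-ratio, quantile and pan-neuronal scaling, only the 6 libraries compared, no variance trend, a library covariate in the manner of Ballgown, the replicate number as a block, and leaving out each library. For unc-47, eat-4 and cat-1 each was joined with no filter, a choice added after seeing the data. Lists of body wall and pharyngeal muscle, hypodermis, intestine, sperm and embryo markers were also counted.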

Additional observations from a re-analysis of the deposited data

Results flagged for a closer look

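One result lay outside the main measurement. A circular RNA within tbh-1, at 15501491 to 15502317 of chromosome X (WBcel235), had 3 counts in Nar+Glu, as 0, 2 and 1 in its libraries, of 3200 circular RNA counts, and 0 in the other 9 libraries. A count of 0 over a group allows a share of up to 0.111% in Control, 0.0892% in Glu and 0.0801% in DMSO+Glu, beside a share of 0.0938% in Nar+Glu. The difference between the groups was not tested, and these limits cover counting error only.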

How the results depend on the processing

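Called members numbered 3 in Glu minus Control and were 1 with quantile normalization, 0 with a library covariate, and 1 to 3 with a library left out. In Nar+Glu minus DMSO+Glu 0 became 2 with the pan-neuronal shift, where 6807 of the 12151 genes were called. In DMSO+Glu minus Control 3 became 1 with only the 6 libraries compared, 0 with a library covariate, and 1 to 3 with a library left out. In Nar+Glu minus Control 5 became 3 with a mean above 5 FPKM, where only 3 were tested, 3 with quantile normalization, 2 with the pan-neuronal shift and 1 with a library covariate, and 4 to 5 with a library left out. The counts of the other alternatives were within 1.5 times of these. The cause was not tested.

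The pan-neuronal shift, which sets the mean of those 22 genes equal in all libraries, moved the median of all genes from -0.06 to -0.41 in Glu minus Control and from -0.01 to -0.31 in Nar+Glu minus DMSO+Glu. It turned the sign in Glu minus Control for unc-17 (-0.17), cha-1 (-0.0613) and cat-1 (-0.0148), in Nar+Glu minus DMSO+Glu for unc-17 (-0.29), cha-1 (-0.0581), unc-25 (-0.18), unc-47 (-0.0516) and eat-4 (-0.00114), and in Nar+Glu minus Control for unc-17 (-0.16) and cat-1 (-0.17). In Nar+Glu minus DMSO+Glu unc-17 was also at -0.0793 with quantile normalization and -0.0261 with a library covariate, and unc-25 at -0.00398 with the latter, which put tdc-1 at -0.0218 in DMSO+Glu minus Glu. Leaving out a library turned signs only of uncalled changes. In DMSO+Glu minus Glu these lay at -0.0218 to 0.109 (cha-1), -0.0566 to 0.145 (unc-47), -0.00768 to 0.18 (cat-1) and -0.0154 to 0.0804 (tdc-1), and in Nar+Glu minus DMSO+Glu at -0.0272 to 0.0381 (unc-17) and -0.125 to 0.162 (cat-1).

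Residuals of libraries with the same replicate number correlated at -0.10 to 0.13 over 18 pairs, so the numbers were not taken as pairs. With the replicate block 3, 0, 0, 3 and 5 members were called in Glu minus Control, DMSO+Glu minus Glu, Nar+Glu minus DMSO+Glu, DMSO+Glu minus Control and Nar+Glu minus Control, and only the call of eat-4 in Glu minus Control was lost. Depth limits are unknown, since FPKM carry no counts.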
